A study of Mus musculus with 12 samples.

Results

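The genes described here are the 37 genes of the mouse mitochondrial genome, chosen as the rows of the deposited table whose symbol starts with mt-. They make up 37 of 33188 rows and comprise 13 protein-coding, 2 rRNA and 22 tRNA genes, all on chromosome MT of GRCm38, with 28 on the plus strand and 9 on the minus strand. The RNA was total RNA of kidneys from mice labelled as wild type, in 3 groups of 4 libraries: controls (CTL), a hyperuricemia model (HUA) made with potassium oxonate and hypoxanthine, and XZSW, named after the Xin-Zi-Sheng-Wan decoction that the study tested against renal injury in that model. The labels used here give no strain, sex, age, dose or treatment time, and do not say what CTL mice received. They also do not state that libraries of the same group are from different mice; p-values therefore reflect library-to-library spread, which may be technical. The letters of the count columns (C, N and M) were matched to CTL, HUA and XZSW through the sample descriptions, and no other label checks that match.

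Potassium oxonate blocks uricase, the enzyme that clears uric acid in mice, and hypoxanthine is a precursor of uric acid. The mitochondrial genome is a small circle that is transcribed from both strands into long RNAs, which are cut at the tRNAs that lie between the other genes. It encodes core subunits of complexes I, III and IV and of ATP synthase, plus the rRNAs and tRNAs that translate them inside the organelle. All other proteins of mitochondria, including its RNA polymerase and ribosomal proteins, come from nuclear genes. The kidney, above all its proximal tubule, is rich in mitochondria.

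Libraries held 51643999 to 74288100 counts. A dependence of gene counts on GC content set 5 libraries apart (HUA2, HUA3, HUA4, XZSW3 and XZSW4). Relative to the CTL mean of each gene, their counts rose by 0.169 to 0.250 log2 units for each 10% of GC. In the other 7 that slope lay between -0.0321 and 0.0407. Because the slope is measured against CTL, the CTL slopes centre on 0 by construction, and all 4 CTL libraries were of the second kind. Group and library kind therefore overlap, and the slope does not separate a library property from a change of expression against CTL. Results are given below with that split where it bears on them. GC content was 31.9% (mt-Atp8) to 41.1% (mt-Nd4l) in the protein-coding genes and 35.4% and 35.8% in the rRNA genes. In the tRNA genes it was 17.1% (mt-Td) to 44.9% (mt-Tm). With a rising slope, genes of lower GC content stand lower relative to CTL than genes of higher GC content. The part of GC content in the mitochondrial changes was not tested. Of the 37 genes, 36 passed the filter on low counts and were tested in the fit of 19772 genes. The remaining gene, mt-Tf (phenylalanine tRNA), had 4 to 22 counts per library.

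Many reads of these genes cannot be placed on the mitochondrial genome alone, because 7 rows of the table lie in a nuclear copy of it on chromosome 1. Gm10222, Gm28439, Gm10925, Gm28437 and Gm28661 matched mt-Nd4l, mt-Nd4, mt-Atp6, mt-Co3 and mt-Co2 in every aligned base (294, 876, 678, 783 and 681 bases). Gm29216 matched mt-Co1 in 486 of 492 bases, and Gm28438 matched mt-Nd3 in 344 of 345 bases, differing by T3C (mitochondrial base first, positions counted from 1 at the first base of mt-Nd3). The pair is shown with that base in capitals, because it is the single difference between a mitochondrial gene and its copy over this length; the mitochondrial stretch is chrMT:9459-9476 of GRCm38, plus strand.
mt-Nd3: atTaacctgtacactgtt
Gm28438: atCaacctgtacactgtt
Each of the 5 copies that span a whole gene held nearly as many counts as the gene itself, with count ratios from 0.981 (Gm28661) to 1.10 (Gm28438) over the 12 libraries. How reads that fit both places were counted is not stated, so the levels of these 7 mitochondrial genes and their copies are uncertain. The other 6 protein-coding genes (mt-Nd1, mt-Nd2, mt-Atp8, mt-Nd5, mt-Nd6 and mt-Cytb) have no row in that copy. A gene without a row may still have sequence there, as the nuclear sequence between the rows was not compared. mt-Atp8 lies between mt-Co2 and mt-Atp6, which both have rows, and shares 43 bases with mt-Atp6. Its level, and those of tRNA genes that lie between genes with rows, may be uncertain in the same way.

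Of the protein-coding genes, 3 neighbouring pairs also overlap on the same strand, so reads in the overlap belong to both; mt-Atp6 and mt-Co3 share 1 base (chrMT:8607). The longer overlaps are shown, as these hold the most shared sequence. The stretch at the mt-Atp8 and mt-Atp6 boundary (chrMT:7917-7979, plus strand) and that at the mt-Nd4l and mt-Nd4 boundary (chrMT:10157-10183, plus strand) are printed with the shared bases in capitals, 43 in the first and 7 in the second, from the GENCODE M21 transcripts.
mt-Atp8 and mt-Atp6: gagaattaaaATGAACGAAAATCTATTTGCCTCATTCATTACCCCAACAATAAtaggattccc
mt-Nd4l and mt-Nd4: acctactacaATGCTAAaaattattct

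The tRNA genes are short and sit between or against their neighbours. Those on which the tRNA results turn are shown with the anticodon, found by a script from the anticodon stem, in capitals. The first 3 lie in a row behind mt-Nd1, with mt-Tq (glutamine tRNA) on the minus strand between mt-Ti (isoleucine) and mt-Tm (methionine).
mt-Ti: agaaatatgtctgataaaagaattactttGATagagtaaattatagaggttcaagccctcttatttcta
mt-Tq: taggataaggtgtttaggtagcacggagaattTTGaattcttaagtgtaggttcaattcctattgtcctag
mt-Tm: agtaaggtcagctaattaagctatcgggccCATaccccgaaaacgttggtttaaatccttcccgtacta
Their positions are chrMT:3706-3774, chrMT:3772-3842 and chrMT:3845-3913. The second set is mt-Tl1, a leucine tRNA that follows the rRNAs (chrMT:2676-2750), mt-Tk (lysine, chrMT:7700-7764), and the run of mt-Th (histidine, chrMT:11546-11612), mt-Ts2 (serine, chrMT:11613-11671) and mt-Tl2 (leucine, chrMT:11671-11741) behind mt-Nd4.
mt-Tl1: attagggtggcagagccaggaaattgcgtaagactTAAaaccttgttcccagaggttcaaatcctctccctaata
mt-Tk: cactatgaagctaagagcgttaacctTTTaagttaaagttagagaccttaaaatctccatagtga
mt-Th: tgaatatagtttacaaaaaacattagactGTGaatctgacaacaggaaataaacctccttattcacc
mt-Ts2: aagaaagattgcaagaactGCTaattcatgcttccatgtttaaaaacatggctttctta
mt-Tl2: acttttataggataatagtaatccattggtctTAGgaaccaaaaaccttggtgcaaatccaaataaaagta
The third set lies on the minus strand and is printed as that strand reads: mt-Ts1 (serine, chrMT:6870-6938) behind mt-Co1, mt-Te (glutamate, chrMT:14071-14139) between mt-Nd6 and mt-Cytb, and mt-Tp (proline, chrMT:15356-15422), the last gene of the annotation.
mt-Ts1: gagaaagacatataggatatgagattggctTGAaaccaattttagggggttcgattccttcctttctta
mt-Te: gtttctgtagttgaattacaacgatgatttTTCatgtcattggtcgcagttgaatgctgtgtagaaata
mt-Tp: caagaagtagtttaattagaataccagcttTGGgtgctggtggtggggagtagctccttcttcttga
The libraries were strand-specific, per the labels' protocols, but whether the counting used strand is not given, so reads of a minus-strand gene and of the RNA opposite it cannot be told apart.

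As a share of all counts, the 13 protein-coding genes together were lower in HUA than in CTL and highest on average in XZSW. In the 4 CTL libraries their share was 13.3%, 14.6%, 11.3% and 11.97%, in HUA 10.4%, 11.1%, 7.68% and 7.94%, and in XZSW 16.9%, 16.3%, 13.2% and 16.7%. The groups' means were 12.8% ± 1.44 (SD, n = 4), 9.28% ± 1.72 and 15.8% ± 1.74. All 4 HUA libraries lay below all CTL libraries, and all XZSW libraries lay above all HUA libraries, while XZSW3 (13.2%) lay within the CTL range. With the 7 nuclear rows added, the protein-coding share ran from 14.5% to 18.6% in CTL, 9.87% to 14.1% in HUA and 16.7% to 21.2% in XZSW, with no overlap between HUA and CTL.

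The rRNA and tRNA rows held far fewer counts. The share of the 2 rRNA genes was 0.265% ± 0.0148 in CTL, 0.155% ± 0.0306 in HUA and 0.231% ± 0.0428 in XZSW. Here every HUA library but HUA2 (0.201%) was at 0.137% to 0.142%, and XZSW ranged from 0.195% to 0.293%, overlapping with both other groups. For the 22 tRNA genes it was 0.0604% ± 0.00793 in CTL, 0.0353% ± 0.00705 in HUA and 0.0699% ± 0.0150 in XZSW, and HUA did not overlap with either of the other groups. Reads in a tRNA row can come from the tRNA or from an uncut RNA that spans it, which the table does not separate.

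**Figure D1:**
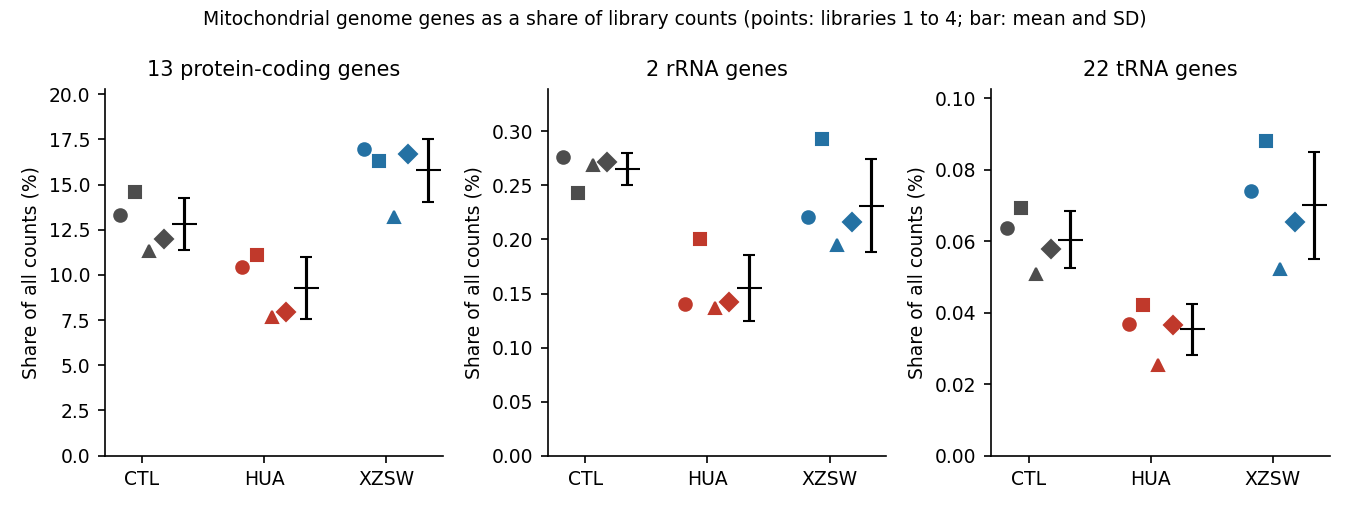
Percent of all counts in each library that fell in the protein-coding, rRNA and tRNA genes of the mitochondrial genome (3 panels, vertical axis in percent from 0), for CTL, HUA and XZSW. Points are libraries and bars are the mean and SD of 4; the HUA protein-coding points (7.68% to 11.1%) lie below all CTL points (11.3% to 14.6%).

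Between genes, levels per length (FPKM, which divides by gene length) ran from mt-Co1, the catalytic core subunit of cytochrome c oxidase, down to mt-Nd3 of complex I. In CTL the mean FPKM was 24036 ± 2013 (SD, n = 4) for mt-Co1, 12786 ± 1433 for mt-Cytb, 12025 ± 1387 for mt-Atp6, 11004 ± 685 for mt-Co3, 10599 ± 2198 for mt-Atp8, 9516 ± 686 for mt-Co2, 9341 ± 833 for mt-Nd1, 7804 ± 711 for mt-Nd2, 6254 ± 654 for mt-Nd4 and 5941 ± 775 for mt-Nd6. The lowest 3 were mt-Nd5 (3284 ± 524), mt-Nd4l (2034 ± 415) and mt-Nd3 (1330 ± 148 FPKM). mt-Co1 was first in all 12 libraries, and from mt-Cytb to mt-Nd1, and again from mt-Nd4 to mt-Nd6, neighbouring means differed by less than the larger of their SDs. mt-Nd3 was last in all libraries but HUA4, where mt-Nd4l was last. mt-Nd6, encoded alone on the minus strand, took place 10 in CTL and in XZSW and place 8 in HUA.

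In HUA most protein-coding genes were lower per library scaled by TMM, and relative to the summed counts of the 13 genes themselves, a scale that centres on them, mt-Nd1, mt-Co1, mt-Co2, mt-Nd5 and mt-Nd6 had the opposite sign (log2 0.071, 0.17, 0.12, 0.064 and 0.13, none called). Of 13, 11 fell in edgeR's quasi-likelihood test (Benjamini-Hochberg adjusted p under 0.05 over all genes) and none rose, with a median log2 change of -0.83 (range -1.20 to -0.63) against 0.06 over all genes tested. In the same comparison 27.8% of the 19772 genes tested were called, which splits into 12.8% called lower and 14.9% called higher. Levels of single genes are given as CPM, counts divided by library size as scaled by edgeR's TMM factors, which are not divided by length and compare libraries, not genes. For 12 of the 13 genes all HUA libraries lay below all CTL libraries in CPM, against 15.2% of all genes tested. The TMM factors themselves did not overlap between these groups (CTL 0.856 to 0.922, HUA 1.09 to 1.15). In the deposited FPKM the groups overlapped for mt-Nd1, mt-Co1, mt-Co2, mt-Atp8, mt-Nd4l, mt-Nd5 and mt-Nd6. For mt-Co1 FPKM ran from 17027 to 23424.5 in HUA and from 22307 to 26532 in CTL. The remaining protein-coding genes stayed apart there.

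Complex I, the entry point of the respiratory chain for NADH, takes 7 of its subunits from the mitochondrial genome. mt-Nd2, a subunit of its membrane arm (ENSMUSG00000064345, chrMT:3914-4951), stood at 10231, 12294, 9231 and 9404 CPM in CTL, 5659.8, 5804, 3415 and 3098 in HUA and 11846, 11192, 7330.1 and 9646 in XZSW. HUA3 and HUA4 were the lowest of the 12, and the HUA and CTL libraries did not overlap. It fell 2.29-fold (log2 change -1.20, SE 0.23, adjusted p = 0.00236). mt-Nd4, another membrane-arm subunit (ENSMUSG00000064363, chrMT:10167-11544), was at 11365, 13096, 9606 and 9746 CPM in CTL, 7131, 6719, 4209 and 4168 in HUA and 15898, 16233, 10059.5 and 15833 in XZSW. The HUA libraries were again below both other groups, and XZSW3 stood apart from the other XZSW libraries. It fell 1.97-fold in HUA (log2 change -0.98, SE 0.23, adjusted p = 0.00608).

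mt-Nd3 (ENSMUSG00000064360, chrMT:9459-9806), whose loop lies near the quinone site, had the smallest adjusted p of the 13 genes. Its CPM was 626, 688, 486 and 552 in CTL, 280.0, 376, 229 and 287 in HUA and 389.8, 449.8, 424 and 399.7 in XZSW. The 3 groups did not overlap with each other, and XZSW lay between CTL and HUA. The fall in HUA was 2.01-fold (log2 change -1.004, SE 0.16, adjusted p = 0.000834). mt-Nd1 also fell (log2 change -0.72, SE 0.18, adjusted p = 0.0105), as did mt-Nd6 (log2 change -0.69, SE 0.23, adjusted p = 0.0388). mt-Nd6 lost its call without any of CTL1, CTL2, CTL4, HUA1 or HUA3, with adjusted p up to 0.127.

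The calls in complex I missed mt-Nd5 and mt-Nd4l. mt-Nd5 was at 8259, 9472, 6072 and 6696 CPM in CTL and 6023, 5512, 3114 and 3879 in HUA, groups that did not overlap (log2 change -0.72, SE 0.26, adjusted p = 0.0564), and it passed the threshold without HUA1 or without XZSW3. mt-Nd4l was at 862, 993, 627 and 598 CPM in CTL, 888, 508, 269 and 188 in HUA and 1768, 1666, 712 and 884 in XZSW. HUA1, XZSW1 and XZSW2 held more of it than the other libraries of their groups, and HUA1 lay within the CTL range (log2 change -0.73, SE 0.43, adjusted p = 0.231). Without HUA1 its log2 change was -1.22 and it was called (adjusted p = 0.0293).

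mt-Cytb (ENSMUSG00000064370, chrMT:14145-15288) encodes cytochrome b, the subunit of complex III that binds quinol. It stood at 19615, 22166, 15799.8 and 16781 CPM in CTL, 11107, 11559, 7191 and 7954 in HUA and 22717, 23085, 17349 and 21858 in XZSW. HUA was below both other groups without overlap, and XZSW overlapped with CTL. It fell 1.97-fold in HUA (log2 change -0.98, SE 0.19, adjusted p = 0.00256).

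All 3 mitochondrial subunits of complex IV, which passes electrons to oxygen, fell in HUA on the TMM scale. mt-Co1 (ENSMUSG00000064351, chrMT:5328-6872) was at 48834, 55015, 42337 and 42468 CPM in CTL, 33817, 36303, 25774 and 26113 in HUA and 50139, 56215, 43831 and 52440.3 in XZSW. Its HUA libraries lay below both other groups, with HUA3 and HUA4 the lowest, and its fall, 1.55-fold, had the smallest estimate of the 13 (log2 change -0.63, SE 0.17, adjusted p = 0.0144). mt-Co2, the subunit that takes electrons from cytochrome c, fell as well (log2 change -0.67, SE 0.16, adjusted p = 0.00707). So did mt-Co3, a structural core subunit (log2 change -0.83, SE 0.15, adjusted p = 0.00149).

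Both ATP synthase genes fell too. mt-Atp6, the membrane subunit of the proton channel (ENSMUSG00000064357, chrMT:7927-8607), was at 10510.5, 12755, 9256 and 9126 CPM in CTL, 5952, 6824, 4691 and 4662 in HUA and 10832, 11416, 7723 and 11249 in XZSW. XZSW3 was the lowest of its group, and HUA lay below both other groups. Its fall was 1.88-fold (log2 change -0.91, SE 0.19, adjusted p = 0.00328). mt-Atp8, which overlaps with it by the 43 bases shown above, fell 2.10-fold (log2 change -1.07, SE 0.29, adjusted p = 0.0153), but lost its call without CTL2 or without HUA3 (adjusted p up to 0.0544).

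Of the 7 protein-coding genes with a row in the nuclear copy, 6 fell, and of the 6 without such a row, 5 fell. With a term for library kind in the fit the estimate of mt-Nd4l was 0.056 on the log2 scale, and 5 of the 13 passed the threshold in HUA (mt-Nd2, mt-Atp6, mt-Co3, mt-Nd3 and mt-Cytb), with a median log2 change of -0.66, where 23.9% of all genes tested were called. With HUA1 alone set against CTL, the comparison within the libraries without the GC trend, 6 were called and the median was -0.62, on the assumption that this lone library varies like the other groups; of all genes 20.5% were called. With plain library totals in place of TMM factors 7 were called, with a median of -0.49 for the 13 genes, and all genes tested then had a median of 0.39 and 35.9% of them were called.

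**Figure D2:**
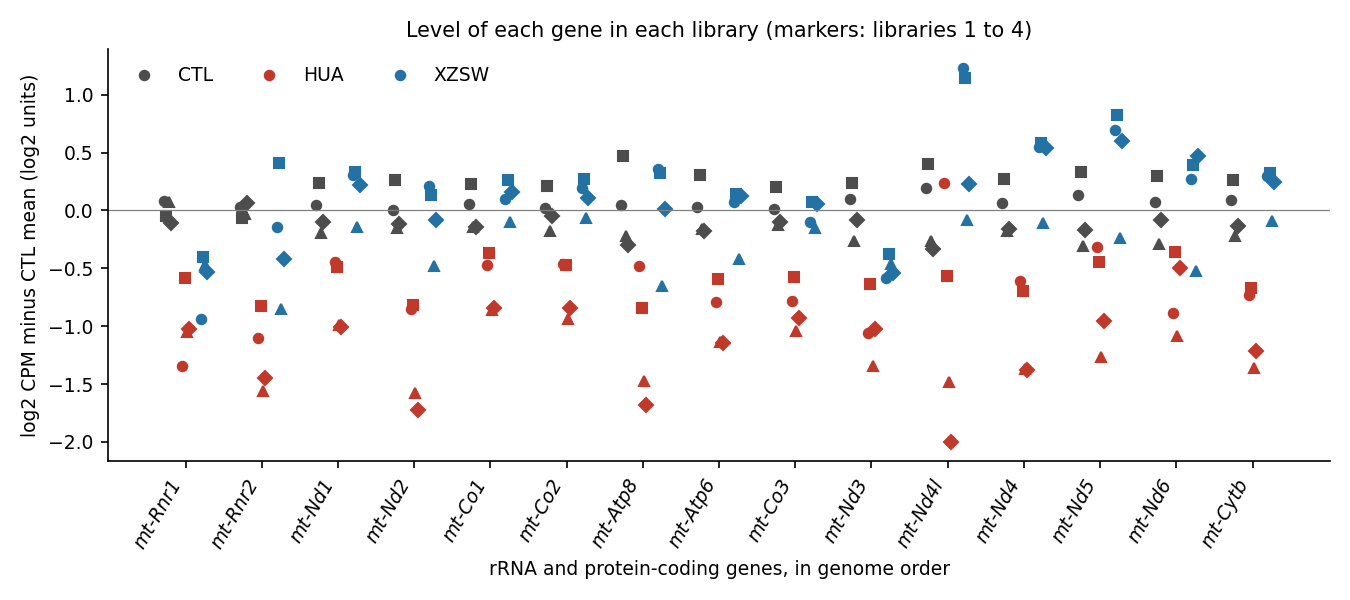
Level of the 2 rRNA and 13 protein-coding genes in each of 12 libraries, as log2 CPM (TMM scale) minus the CTL mean of that gene (vertical axis in log2 units, genes in genome order along the horizontal axis). Markers are libraries coloured by group; HUA points lie below 0, except HUA1 for mt-Nd4l, and all 4 XZSW points lie below 0 for mt-Rnr1 and mt-Nd3.

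In XZSW most protein-coding genes were higher than in HUA on the TMM scale, and relative to the pool of the 13 genes mt-Nd1, mt-Co1, mt-Co2, mt-Co3, mt-Atp6, mt-Nd3 and mt-Nd6 had the opposite sign (log2 -0.42 for mt-Nd3 to -0.038 for mt-Nd1, none called). Of 13 protein-coding genes, 12 rose and none fell, with a median log2 change of 0.90 against 0.01 over all genes, while 15.4% of all genes tested were called, 7.09% higher and 8.34% lower. In CPM the XZSW and HUA libraries did not overlap for 10 of the 13 genes, all higher in XZSW. Over all genes, 8.98% were higher and 9.08% lower without overlap. mt-Nd4 had the smallest adjusted p, at 2.61-fold (log2 change 1.38, SE 0.23, adjusted p = 0.00231). mt-Cytb rose 2.25-fold (log2 change 1.17, SE 0.19, adjusted p = 0.00240) and mt-Nd2 rose 2.23-fold (log2 change 1.15, SE 0.23, adjusted p = 0.00677). These 3 genes were also among those that had fallen in HUA.

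The rise of mt-Nd5 was 2.33-fold (log2 change 1.22, SE 0.26, adjusted p = 0.00916), and its XZSW libraries stood at 12155, 13284, 6355 and 11411 CPM. XZSW3 was close to the CTL level there and the other 3 were above the CTL range. mt-Nd4l had the largest estimate (log2 change 1.44, SE 0.44, adjusted p = 0.0405), but its groups overlapped and it lost the call in 9 of 12 omissions of a single library. mt-Nd1 and the 3 complex IV genes rose by log2 0.90 (mt-Nd1), 0.73 (mt-Co1), 0.80 (mt-Co2) and 0.79 (mt-Co3), with adjusted p from 0.00458 (mt-Co3) to 0.0127 (mt-Co1). mt-Atp6 (log2 0.90), mt-Atp8 (log2 1.10) and mt-Nd6 (log2 0.88) rose too. For mt-Atp8 and mt-Nd6 the groups overlapped, and mt-Atp8 lost its call without any of HUA3, HUA4, XZSW1 or XZSW2 and mt-Nd6 without any of HUA3, XZSW2 or XZSW4 (adjusted p up to 0.0732 and 0.0729). mt-Nd3 was the gene not called (log2 change 0.50, SE 0.16, adjusted p = 0.0511), although its groups did not overlap in CPM. It was called without HUA2 (adjusted p = 0.0116).

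Within each library kind the 13 genes had a positive median difference between XZSW and HUA. Among libraries without the GC trend (HUA1 against XZSW1 and XZSW2) 9 of the 13 genes rose and the median log2 change was 0.92, with 9.87% of all genes called and the lone HUA library assumed to vary like the other groups. Among libraries with it (HUA2, HUA3 and HUA4 against XZSW3 and XZSW4) the median was 0.86, and edgeR called none of the 13, with 11 at an unadjusted p under 0.05; in that fit 0.204% of all genes tested were called.

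Between XZSW and CTL no protein-coding, rRNA or tRNA gene passed the threshold in edgeR's quasi-likelihood test, where 4.99% of all genes tested were called. At an unadjusted p under 0.05 there were 1 protein-coding, 1 rRNA and 6 tRNA genes, and DESeq2 called 1, 1 and 4, where it called 12.3% of all genes. The protein-coding gene was mt-Nd3, lower in CPM in all XZSW than in all CTL libraries (log2 change -0.50, SE 0.16, adjusted p = 0.0869, DESeq2 adjusted p = 0.0358). On the TMM scale the median log2 change of the 13 genes was 0.13, close to 0.04 over all genes. Single genes ran from -0.50 for mt-Nd3 to 0.71 for mt-Nd4l. With library totals the median was 0.28 against 0.20 over all genes, and with limma on log2(FPKM + 1) 0.36 against 0.12. In FPKM all XZSW libraries lay above all CTL libraries for mt-Co1 (at least 27386 against at most 26532), mt-Cytb, mt-Co2 and mt-Co3. mt-Nd3 overlapped there (1056 to 1176 in XZSW, 1136 to 1474 in CTL). Within the libraries without the GC trend (XZSW1 and XZSW2 against CTL), mt-Nd4 (log2 change 0.58, adjusted p = 0.0383), mt-Nd5 (log2 change 0.76, adjusted p = 0.0302) and mt-Nd4l (log2 change 1.18, adjusted p = 0.0115) were higher in XZSW, where 12.9% of all genes tested were called. Since HUA and XZSW are compared with the same CTL libraries, and HUA enters 2 of the comparisons, the 3 sets of values are not independent.

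Levels were also set against the pool of protein-coding mitochondrial RNA. The pool share of a gene is its percent of the summed counts of the 13 genes, so a higher share of a gene means a lower sum of the others. mt-Co1 made up 32.96, 32.3, 33.6 and 32.7% of the pool in CTL, 35.4, 36.5, 38.5 and 37.4% in HUA and 29.9, 31.7, 34.8 and 31.8% in XZSW. It was higher in every HUA library than in every library of the other groups. mt-Cytb made up 13.2, 13.01, 12.5 and 12.9% in CTL, 11.6, 11.6, 10.7 and 11.4% in HUA and 13.6, 12.9997, 13.8 and 13.2% in XZSW. Here the HUA libraries were the lowest 4. In the fit scaled to the pool neither gene was called in HUA against CTL (adjusted p = 0.167 for mt-Co1 and 0.155 for mt-Cytb) or in XZSW against HUA (0.0915 and 0.0719).

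For mt-Nd2 the share was 6.91, 7.22, 7.32 and 7.24% in CTL, 5.93, 5.84, 5.10 and 4.44% in HUA and 7.07, 6.30, 5.81 and 5.84% in XZSW. All HUA libraries were below CTL, and XZSW overlapped with both. For mt-Nd4 it was 7.67, 7.69, 7.62 and 7.50% in CTL, 7.47, 6.76, 6.28 and 5.97% in HUA and 9.49, 9.14, 7.98 and 9.59% in XZSW. The 3 groups were apart, with XZSW the highest. When the same model was scaled to the pool instead of to TMM factors, mt-Nd2 was the protein-coding gene called in HUA against CTL (log2 change -0.43, adjusted p = 0.0157) and mt-Nd4 that called in XZSW against HUA (log2 change 0.45, adjusted p = 0.00689). On that scale 52.8% of all genes were called in the first comparison, 57.2% in the second and 1.91% between XZSW and CTL, where no mitochondrial gene was called.

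**Figure D3:**
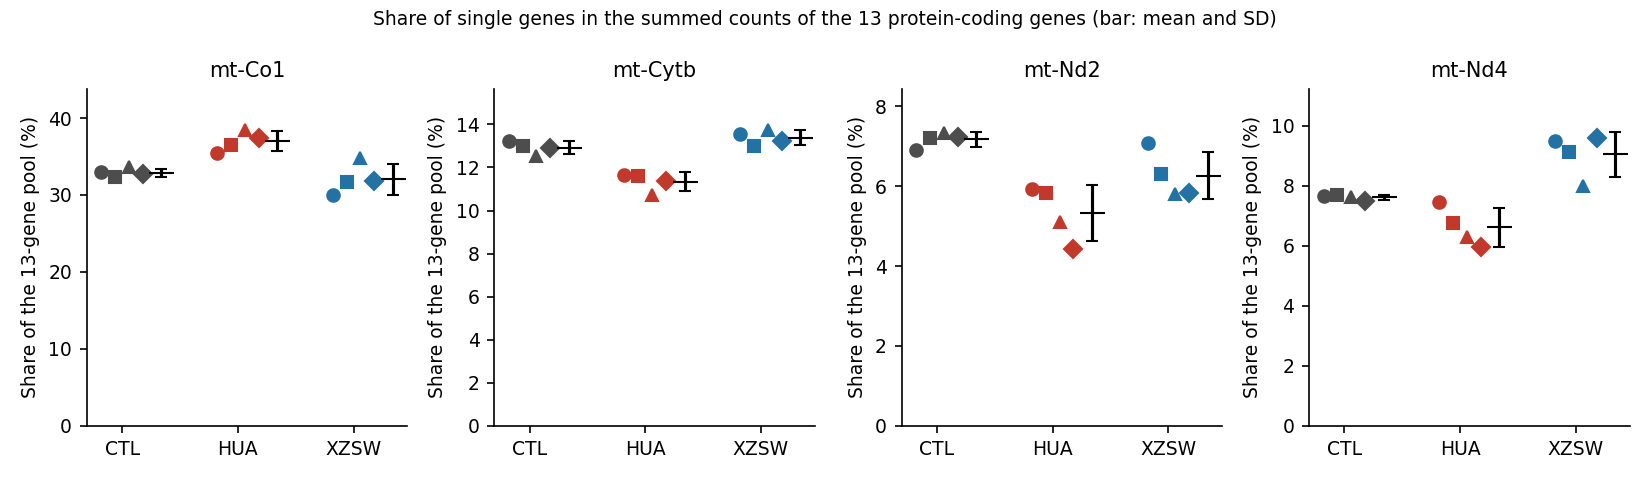
Share of single genes in the summed counts of the 13 protein-coding mitochondrial genes, in percent (vertical axis from 0), for the 4 libraries of CTL, HUA and XZSW, with bars for the mean and SD. mt-Co1 is higher in HUA (35.4% to 38.5%) than in CTL (32.3% to 33.6%), whereas mt-Cytb, mt-Nd2 and mt-Nd4 are lower there.

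The rRNAs form the core of the mitochondrial ribosome's subunits. mt-Rnr1, the small-subunit rRNA (ENSMUSG00000064337, chrMT:70-1024), stood at 1381, 1256, 1369.6 and 1207 CPM in CTL, 512, 867, 629 and 640.1 in HUA and 680.3, 982, 937 and 898 in XZSW. All HUA and all XZSW libraries lay below all CTL libraries, and HUA2 overlapped with XZSW. mt-Rnr1 fell 1.97-fold in HUA (log2 change -0.98, SE 0.17, adjusted p = 0.00137), and its XZSW difference from HUA did not pass the threshold (log2 change 0.40, SE 0.17, adjusted p = 0.134), nor did that from CTL (log2 change -0.58, SE 0.17, adjusted p = 0.0679). DESeq2 called the latter (adjusted p = 0.0167). edgeR called the first without HUA2 (adjusted p = 0.0274), and the second without HUA1 (adjusted p = 0.0430) or without HUA2 (adjusted p = 0.0433).

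mt-Rnr2, the large-subunit rRNA (ENSMUSG00000064339, chrMT:1094-2675), was at 1693, 1585, 1625 and 1739 CPM in CTL, 772, 934, 564 and 609.7 in HUA and 1501, 2209.6, 919.9 and 1239 in XZSW. XZSW1 and XZSW2 were near or above CTL, whereas XZSW3 lay within the HUA range. It fell 2.31-fold in HUA (log2 change -1.21, SE 0.24, adjusted p = 0.00268) and rose 2.04-fold in XZSW against HUA (log2 change 1.03, SE 0.24, adjusted p = 0.0130). That rise lost its call in a fit of only these 8 libraries. Scaled to the pool, neither rRNA was called in HUA (0 of 2, with a median log2 change of -0.31), and mt-Rnr1 was lower in XZSW than in HUA (log2 change -0.54, adjusted p = 0.0472). Whether rRNA was depleted or poly(A) RNA selected is not stated. The rRNA rows, and their ratio below, therefore describe what remained in the libraries and may not follow rRNA levels in the kidney.

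The ratio of the rRNAs, mt-Rnr2 counts per mt-Rnr1 count, was 1.23, 1.26, 1.19 and 1.44 in CTL, 1.51, 1.08, 0.897 and 0.953 in HUA and 2.21, 2.25, 0.982 and 1.38 in XZSW. HUA1, XZSW1 and XZSW2 were higher than the other libraries, whatever the group. Exact two-sided permutation tests over libraries gave p = 0.229 for HUA against CTL, 0.171 for XZSW against HUA and 0.343 for XZSW against CTL; with 4 against 4 the smallest possible p is 0.0286.

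mt-Nd6 and mt-Nd5 are neighbours on opposite strands, and the ratio of their counts compares the rows, not the strands, since the use of strand in counting is not given. It was 0.493, 0.503, 0.523 and 0.549 in CTL, 0.348, 0.547, 0.589 and 0.709 in HUA and 0.385, 0.384, 0.425 and 0.470 in XZSW. The ratio was lower in every XZSW library than in every CTL library, and HUA spread over a wider range than both. For XZSW against CTL the log2 difference was -0.32 (exact permutation p = 0.0286, the smallest possible, and 0.171 after Benjamini-Hochberg adjustment over the 6 ratio tests). For HUA against CTL it was 0.04 (exact p = 0.886), and for XZSW against HUA -0.36 (exact p = 0.171).

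Counts of the nuclear rows that match only a piece of a mitochondrial gene were set against that gene. Gm28439, which matches the first 876 of the 1378 bases of mt-Nd4, held 0.351, 0.360, 0.328 and 0.312 counts per mt-Nd4 count in CTL, 0.406, 0.327, 0.289 and 0.248 in HUA and 0.405, 0.382, 0.262 and 0.278 in XZSW. The highest 3 were again HUA1, XZSW1 and XZSW2, the libraries of HUA and XZSW without the GC trend. Gm29216, which aligns to 492 bases of mt-Co1 with the mismatches given above, held 0.0894, 0.0883, 0.0862 and 0.09997 counts per mt-Co1 count in CTL, 0.0677, 0.108, 0.114 and 0.144 in HUA and 0.0606, 0.0617, 0.0815 and 0.0780 in XZSW. In this ratio the same 3 libraries were the lowest. CTL, of the same library kind, did not share these values. Relative to the CTL mean of each gene, HUA1, XZSW1 and XZSW2 also had the steepest rise of counts with gene length. The slope was 0.146, 0.103 and 0.0676 log2 units per doubling of length, against -0.0350 to 0.0582 in the other 9 libraries. Its part in these ratios, and in the levels of mt-Nd4l, was not tested.

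**Figure D4:**
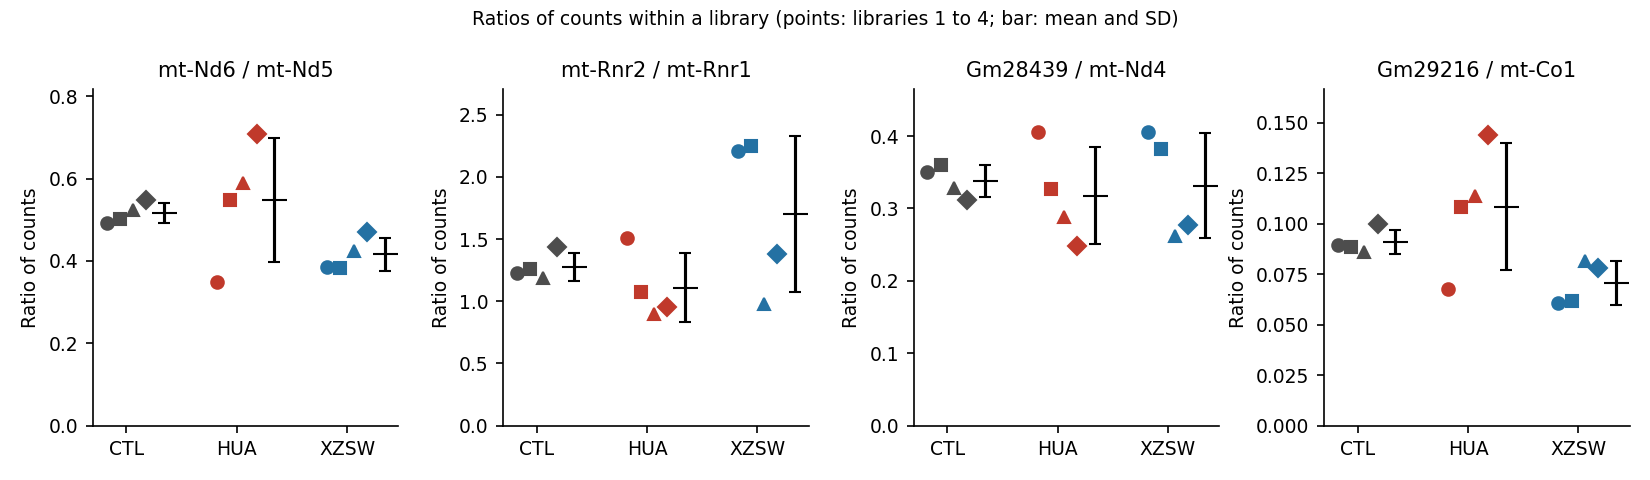
Ratios of counts within a library (vertical axes without unit, from 0) for mt-Nd6 to mt-Nd5, mt-Rnr2 to mt-Rnr1 and the nuclear rows Gm28439 to mt-Nd4 and Gm29216 to mt-Co1, by group. Points are libraries and bars are the mean and SD of 4; in XZSW the mt-Rnr2 to mt-Rnr1 points split into a high pair (2.21 and 2.25) and a low pair (0.982 and 1.38).

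tRNA genes were lower in HUA in most cases. Of the 21 tested, 15 fell and none rose, with a median log2 change of -1.20 (range -1.73 to -0.03). For 19 all HUA libraries lay below all CTL libraries in CPM. In FPKM some of these overlapped, among them mt-Tw (12.1 to 31.9 in HUA, 27.4 to 75.0 in CTL). Over all genes tested, 12.8% were called lower, and 15.2% lay lower without overlap. The levels of the tRNA genes were low, and 7 of the 15 (mt-Tl1, mt-Ti, mt-Tw, mt-Th, mt-Ts2, mt-Tl2 and mt-Te) were called in all 12 omissions of a library. The count dropped to 7 without HUA3, 8 without CTL2 and 9 without CTL1 or CTL4. With a term for library kind 2 were called, mt-Tl1 and mt-Ts1, where 23.9% of all genes tested were called. The other 8 that fell were mt-Tq, mt-Ta, mt-Tn, mt-Ty, mt-Ts1, mt-Tk, mt-Tg and mt-Tt, by log2 -1.47 (mt-Ty) to -0.63 (mt-Ts1). The 6 not called were mt-Tv, mt-Tm, mt-Tc, mt-Td, mt-Tr and mt-Tp, with adjusted p from 0.0526 (mt-Tc) to 0.939 (mt-Tp).

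mt-Tl1 had the largest estimate. It stood at 68.9, 70.7, 46.1 and 64.05 CPM in CTL, 22.1, 21.9, 11.6 and 19.4 in HUA and 48.5, 69.3, 30.2 and 52.5 in XZSW. HUA was below both other groups, and its fall was 3.33-fold (log2 change -1.73, SE 0.26, adjusted p = 0.000518). It was also lower relative to the pool (log2 change -0.95, adjusted p = 0.00226). mt-Te, which with mt-Ts1 held most tRNA counts, was at 340.0, 399, 261 and 267 CPM in CTL, 142, 153, 68.8 and 102 in HUA and 398, 486, 173 and 249 in XZSW. It fell 2.72-fold (log2 change -1.44, SE 0.32, adjusted p = 0.00488) and, relative to the pool, was lower as well (log2 change -0.67, adjusted p = 0.0235).

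The run of mt-Th, mt-Ts2 and mt-Tl2 had similar changes. mt-Th was at 8.03, 10.1, 6.20 and 9.65 CPM in CTL, 3.19, 3.50, 2.72 and 4.24 in HUA and 5.84, 7.40, 2.78 and 5.20 in XZSW, and mt-Tl2, at the other end of the run, at 7.21, 7.95, 5.81 and 8.93, 2.50, 2.72, 1.99 and 3.94 and 4.13, 5.22, 2.05 and 3.79. These genes abut, so reads that span a boundary may count for both neighbours. All 3 fell in HUA (log2 -1.32 for mt-Th, -1.43 for mt-Ts2 and -1.42 for mt-Tl2), and none was called in XZSW against HUA (log2 0.64, 0.48 and 0.45). The XZSW libraries lay below all CTL libraries for mt-Ts2 and mt-Tl2, where DESeq2 called both and edgeR neither (0.0864 and 0.0710 adjusted p).

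All 3 tRNAs of the run behind mt-Nd1 rose in XZSW against HUA. mt-Tm stood at 10.3, 11.6, 10.5 and 8.23 CPM in CTL, 8.45, 5.48, 2.98 and 2.33 in HUA and 24.5, 29.97, 12.2 and 11.1 in XZSW. Its rise against HUA, 4.04-fold, was the largest of the tRNAs (log2 change 2.01, SE 0.41, adjusted p = 0.00696), whereas the HUA and CTL libraries overlapped (log2 change -1.08, SE 0.40, adjusted p = 0.0609). mt-Tq, at 14.9, 19.6, 8.99 and 8.69 CPM in XZSW against 5.59, 4.71, 2.64 and 2.27 in HUA, rose 3.42-fold (log2 change 1.78, SE 0.33, adjusted p = 0.00423), and mt-Ti rose 2.85-fold (log2 change 1.51, SE 0.27, adjusted p = 0.00360). Relative to the pool mt-Tm (log2 change 1.11, adjusted p = 0.0101) and mt-Tq (log2 change 0.86, adjusted p = 0.0188) were higher in XZSW than in HUA.

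In all, 8 of 21 tRNA genes rose in XZSW against HUA and none fell (median log2 change 0.96). Of all genes tested, 7.09% were called higher. The 8 tRNA genes were mt-Tl1, mt-Ti, mt-Tq, mt-Tm, mt-Tw, mt-Ts1, mt-Te and mt-Tp. The count was 5 without HUA3 and between 5 and 10 over all omissions, and mt-Tp lost its call in 9 of the 12 omissions, mt-Tw in 6 and mt-Ts1 in 2. Of these 8, mt-Ts1 and mt-Tp had the opposite sign relative to the pool (log2 -0.19 and -0.24, not called), and of the 15 that fell in HUA mt-Ts1 did (log2 0.21, not called). mt-Tk, the lysine tRNA, was not called in that comparison and was at 2.31, 2.16, 1.72 and 2.26 CPM in CTL, 0.884, 0.494, 0.293 and 1.43 in HUA and 0.584, 0.904, 0.466 and 0.830 in XZSW. All XZSW libraries were below all CTL libraries (log2 change -1.60, SE 0.45, adjusted p = 0.0583), and relative to the pool mt-Tk was lower in XZSW than in HUA (log2 change -1.17, adjusted p = 0.0491).

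mt-Tp had the smallest estimate of the tRNAs in HUA. It stood at 31.98, 37.2, 30.96 and 30.5 CPM in CTL, 41.7, 38.6, 22.3 and 25.6 in HUA and 49.8, 61.5, 50.8 and 40.6 in XZSW. HUA1 and HUA2 were above all CTL libraries and HUA3 and HUA4 below them (log2 change -0.03, SE 0.20, adjusted p = 0.939), while relative to the pool mt-Tp was higher in HUA (log2 change 0.74, adjusted p = 0.00600). All XZSW libraries lay above all CTL libraries, a difference that did not pass the threshold (log2 change 0.63, SE 0.20, adjusted p = 0.0781). The remaining genes of the annotated minus strand (mt-Ta, mt-Tn, mt-Tc and mt-Ty, which lie together) had log2 changes from -1.47 to -1.07 in HUA, and mt-Tc was the 1 of these 4 not called (adjusted p = 0.0526).

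**Figure D5:**
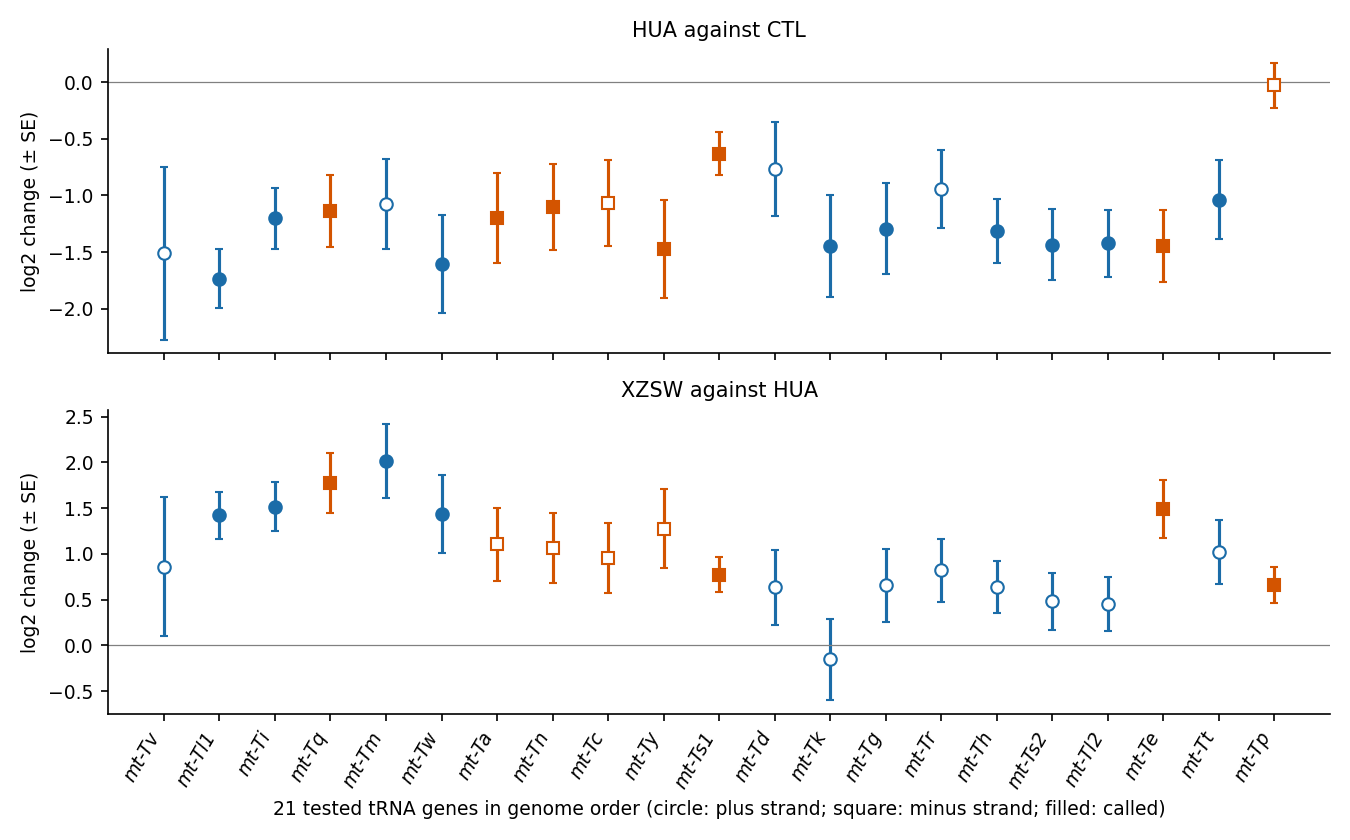
Log2 change with its SE (vertical axis) of the 21 tested tRNA genes in genome order. The panels show HUA against CTL and XZSW against HUA. Filled points passed the threshold of edgeR's quasi-likelihood test, 15 for HUA against CTL and 8 for XZSW against HUA.

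Nuclear genes that serve the mitochondrial genome were counted on lists for each step, to be read against the shares of all genes tested: 12.8% called lower and 14.9% higher in HUA against CTL, and 7.09% higher and 8.34% lower in XZSW against HUA. Of 10 transcription genes, 4 fell in HUA and none rose: Tfam, which packages the genome and starts transcription (log2 change -0.65, SE 0.11, adjusted p = 0.00100), Tfb2m, Mterf3 and Tefm, the elongation factor. The polymerase itself, Polrmt, was not called (log2 change -0.23, SE 0.12, adjusted p = 0.194). In XZSW against HUA 1 of the 10, Mterf3, rose (log2 change 0.45, SE 0.12, adjusted p = 0.0239). Of 13 genes of replication and nucleotide supply, 2 fell in HUA, Top1mt and Rrm2b, a share near that of all genes, and Rnaseh1, which removes RNA from RNA-DNA hybrids, rose (log2 change 0.76, SE 0.19, adjusted p = 0.00866).

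Of 32 genes of mitochondrial RNA processing, modification and turnover, 14 fell in HUA and none rose, with a median log2 change of -0.37. Lrpprc, which stabilises the messenger RNAs, fell (log2 change -0.94, SE 0.17, adjusted p = 0.00153), as did Grsf1, a protein of the RNA granules (log2 change -1.07, SE 0.18, adjusted p = 0.00113). The enzymes that cut out the tRNAs, Prorp and Trmt10c of RNase P (log2 change -0.51, SE 0.12, adjusted p = 0.00632 for Prorp) and Elac2 (log2 change -0.48, SE 0.12, adjusted p = 0.00892), fell too. In XZSW against HUA 4 of the 32 rose and none fell.

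For translation, 9 of 11 factors fell in HUA and none rose, among them Gfm1 (log2 change -0.82, SE 0.14, adjusted p = 0.000980) and Gfm2 (log2 change -0.84, SE 0.13, adjusted p = 0.000772), the factors of elongation and of ribosome recycling. Of 20 mitochondrial tRNA synthetases and their partners 3 fell, Gatb, Rars2 and Fars2, again near the share of all genes. Of 78 genes with the Mrpl and Mrps symbols of mitochondrial ribosomal proteins, 19 fell and 2 rose, with a median log2 change of -0.24. Mrps36 was among those that fell (log2 change -0.80, SE 0.14, adjusted p = 0.00140). The 2 that rose were Mrpl33 (log2 change 1.24, SE 0.23, adjusted p = 0.00163) and Mrpl52. This list was chosen by symbol, so not every member need be part of the ribosome. In XZSW against HUA the counts that rose were 2 of 11, 3 of 20 and 3 of 78. Of the 78, 3 fell, and for this list both counts are no more than over all genes.

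Regulators of mitochondrial biogenesis split. Of 9, 4 fell in HUA: Perm1 (log2 change -2.08, SE 0.35, adjusted p = 0.00103), Ppargc1b, Esrra (log2 change -1.08, SE 0.18, adjusted p = 0.00109) and Ppargc1a, the coactivator PGC-1alpha (log2 change -0.84, SE 0.27, adjusted p = 0.0309). Pprc1, a related coactivator (log2 change 1.58, SE 0.27, adjusted p = 0.00115), and Gabpb1 rose. In XZSW against HUA Perm1, Ppargc1b and Esrra rose, and Pprc1 and Gabpb1 fell.

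The nuclear partners of the mitochondrial subunits moved to different extents. In HUA 17 of 36 nuclear complex I genes fell, all 4 of complex II, 5 of 9 of complex III, 1 of 11 of complex IV and 7 of 17 of ATP synthase, and none of these rose. Examples are Ndufv1 (log2 change -0.80, SE 0.13, adjusted p = 0.000768), the complex I subunit that binds NADH, Sdhb (log2 change -0.82, SE 0.15, adjusted p = 0.00156), an iron-sulfur subunit of complex II, Uqcrc2 (log2 change -0.86, SE 0.13, adjusted p = 0.000550) and Atp5b (log2 change -0.78, SE 0.13, adjusted p = 0.00106), the catalytic subunit of ATP synthase. Medians of the log2 change were -0.53, -0.76, -0.48, -0.22 and -0.34, in that order. For complex IV the 3 mitochondrial subunits fell while Ndufa4 was the nuclear gene that did (log2 change -0.48, SE 0.16, adjusted p = 0.0403); this difference between the lists was not tested. In XZSW against HUA 9, 2, 4, 0 and 4 genes rose, and none fell.

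In HUA against CTL and in XZSW against HUA, levels of proximal tubule genes moved in the same direction as most protein-coding mitochondrial genes. Of 12 proximal tubule markers, 10 fell in HUA (median log2 change -1.59) and 10 rose in XZSW against HUA. Their summed level was 39857 to 45534 CPM in CTL, 8613 to 21974 in HUA and 24648 to 32124 in XZSW, with no overlap between any of the groups. Between XZSW and CTL no marker of this list was called (median log2 change -0.22). The 13 protein-coding mitochondrial genes had a median of 0.13 there. Of 10 macrophage and leukocyte markers 6 rose in HUA, and their sum was 74.6 to 130.0 CPM in CTL, 102 to 304 in HUA and 89.0 to 264 in XZSW. Of 5 fibroblast markers 4 rose in HUA, and the sum was 52.2 to 81.8 CPM in CTL, 195 to 363 in HUA and 51.3 to 279 in XZSW. Among the other segments and cells, 2 of 5 thick ascending limb markers fell in HUA, 1 of 4 distal convoluted tubule markers fell and 1 rose, 2 of 6 collecting duct markers fell and 1 rose, and 1 of 5 endothelial markers fell. In XZSW against HUA 2, 3, 3 and 1 of these markers rose, in that order, and none fell. In the same comparison 3 of the 10 macrophage and leukocyte markers fell and none rose (median log2 change -0.76). No fibroblast marker was called there (median log2 change -0.73). Against CTL, 2 of the 10 and 2 of the 5 were higher in XZSW, where 2.72% of all genes tested were called higher. Over all genes tested, 12.8% were called lower and 14.9% higher in HUA against CTL. In XZSW against HUA 7.09% were called higher and 8.34% lower. Single calls on lists this short are not set apart from these shares. In these bulk kidney samples fewer cells of a type and less RNA per cell cannot be told apart, and the part of cell makeup in the mitochondrial levels was not tested.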

How the data were processed

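RNA-seq of mouse kidney (12 libraries, 4 in each of CTL, HUA and XZSW) was taken from the authors' deposited table of 33188 genes. Per the submitters' processing notes, the tools were cutadapt 1.9 and HISAT2 2.2.1 and the build was GRCm38. The library protocol was strand-specific, with an RNA integrity number above 7, per the labels' protocols. The counter, its use of strand, its treatment of reads that fit several places and the annotation release are not given in the sources used here. Whole-number counts and FPKM values for each gene and library were deposited by the authors, per the file headers.

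Counts (51643999 to 74288100 per library) were filtered with filterByExpr, scaled by TMM and fitted with edgeR 4.0.16 (quasi-likelihood, R 4.3.3) over all 12 libraries, with 3 contrasts and Benjamini-Hochberg adjustment over 19772 genes at a threshold of 0.05. The 2 count ratios were tested by exact permutation over libraries. FPKM was used for order between genes. Alternatives were other scaling, no low-count filter, DESeq2 1.42.0, limma 3.58.1 on log2(FPKM + 1) or log2(FPKM + 0.1) with a mean of at least 0.1 FPKM, 8 libraries, a replicate block, a library-kind term (GC slope over 0.15) and single omissions. The split by library kind was chosen after seeing the data. Its GC slope was fitted, together with gene length, to log2 levels relative to the CTL mean.

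The genes and lists were chosen with earlier results of these data known. Every mitochondrial gene was named where tested or called. From each nuclear list the 2 genes with the smallest p in HUA against CTL were eligible, plus Tfam, Polrmt, Lrpprc and Ppargc1a; other nuclear genes named were chosen after their values were seen. The lists covered mitochondrial transcription, replication, RNA processing, tRNA synthetases, translation factors, ribosomal proteins, biogenesis regulators, nuclear subunits of complexes I to IV and ATP synthase, and markers of kidney cell types. No pair of libraries in a group agreed within counting noise (chi-square per degree of freedom 28.6 to 516). Sequences come from GENCODE M21 transcripts, where all 37 genes had the table's positions.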

Additional observations from a re-analysis of the deposited data

Results flagged for a closer look

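Over 120 groups of 4 libraries checked, 6 had a library far from the other 3, and chance alone gives about 1 in 20. In XZSW, XZSW3 was low for mt-Nd4 (10059.5 CPM, the others 15833 to 16233) and for mt-Atp6 (7723 CPM, the others 10832 to 11416), and XZSW2 was high for mt-Ti (15.7 CPM, the others 7.82 to 8.68). In HUA, HUA3 was low for mt-Tc (1.84 CPM, the others 4.68 to 5.17), HUA1 was high for mt-Tf (0.137 CPM, the others 0.0582 to 0.0591, at 4 to 11 counts) and HUA2 was high in the rRNA share (0.201% of counts, the others 0.137% to 0.142%). Without XZSW3 mt-Nd4 and mt-Atp6, and without XZSW2 mt-Ti, were still called in XZSW against HUA.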

How the results depend on the processing

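Of 2624 results for single genes under an alternative, 2294 kept their side of the threshold with no called gene changing sign, 244 lost the call, 71 gained it and 15 changed sign with a call in either fit, all of them relative to the pool, a scale that by construction centres on the 13 protein-coding genes. There their log2 changes in HUA against CTL became 0.071 (mt-Nd1), 0.17 (mt-Co1), 0.12 (mt-Co2), 0.13 (mt-Nd6), 0.21 (mt-Ts1) and 0.74 (mt-Tp), and in XZSW against HUA -0.038 (mt-Nd1), -0.21 (mt-Co1), -0.14 (mt-Co2), -0.15 (mt-Co3), -0.052 (mt-Atp6), -0.11 (mt-Nd6), -0.19 (mt-Ts1), -0.24 (mt-Tp) and -0.54 (mt-Rnr1). Of these mt-Tp in the first and mt-Rnr1 in the second were called. For HUA against CTL, protein-coding calls went from 11 to 7 with library totals, 2 with limma on FPKM at either pseudocount, 1 relative to the pool, 5 with the library-kind term and 6 among libraries without the GC trend. rRNA calls went from 2 to 0 relative to the pool. tRNA calls went from 15 to 9 with library totals or no filter, 3 relative to the pool, 2 with the kind term and 6 without the GC trend. For XZSW against HUA, protein-coding calls went from 12 to 5 with limma on log2(FPKM + 0.1), 1 relative to the pool and 0 among libraries with the GC trend, where rRNA and tRNA calls were also 0. rRNA calls went from 1 to 0 with 8 libraries, and tRNA calls from 8 to 5 with 8 libraries and 3 relative to the pool. For XZSW against CTL, calls of protein-coding, rRNA and tRNA genes went from 0 to 1, 1 and 4 with DESeq2, 1, 1 and 3 with 8 libraries, 1, 1 and 3 with the kind term and 3, 1 and 4 without the GC trend, and tRNA calls to 1 with library totals and 2 with limma at either pseudocount. The cause of these changes was not tested, except that partial sets hold fewer libraries.

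With single libraries left out, calls ranged from 9 to 12 (protein-coding), 2 to 2 (rRNA) and 7 to 16 (tRNA) for HUA against CTL, from 9 to 12, 1 to 2 and 5 to 10 for XZSW against HUA, and from 0 to 0, 0 to 1 and 0 to 2 for XZSW against CTL. Same-numbered libraries of different groups correlated at -0.036 to 0.239, not all over 0.1. Libraries with different numbers were not compared, so whether the numbers mark a pairing was not tested. With the replicate block, calls were 13, 2 and 17 for HUA against CTL, 13, 1 and 11 for XZSW against HUA and 0, 0 and 1 for XZSW against CTL. Library totals moved the median log2 change of all genes from 0.06 to 0.39 (HUA against CTL), 0.01 to -0.16 (XZSW against HUA) and 0.04 to 0.20 (XZSW against CTL). Depth limits the tRNAs with the fewest counts, among them mt-Tf, mt-Tv, mt-Td, mt-Tg and mt-Tk.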
